A study of Rattus norvegicus with 6 samples.

Results

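The core circadian clock genes examined here were 8 genes of the molecular clock: Per1 (ENSRNOG00000007387), Per2 (ENSRNOG00000020254), Per3 (ENSRNOG00000018413), Dbp (ENSRNOG00000021027), Arntl (ENSRNOG00000014448, named Bmal1 in RefSeq), Clock (ENSRNOG00000002175), Nr1d1 (ENSRNOG00000009329) and Nr1d2 (ENSRNOG00000046912). They were taken by their Ensembl identifiers from the 33692 features of the deposited tables, and all 8 were among the 15497 features with enough counts to be tested. The set was proposed because the mean of Per1 was about 4-fold higher in afatinib than in vehicle libraries, with no overlap, so the difference between treatments is given below as a description of the members. Counts of calls from fits of the whole table are given as background, and nothing is read from them about Per1 or the set. The deposited tables hold identifiers without symbols, and the symbols used here came with the list of members. The series compared back skin of rats (Rattus norvegicus) given afatinib, an irreversible inhibitor of the epidermal growth factor receptor family, with back skin of rats given vehicle, with 3 libraries in each group. The labels give no strain, sex, age, dose, duration of treatment or time of day of sampling, and they do not say that the libraries came from separate animals, so the spread between them may be partly technical. Libraries are named by the replicate numbers of their titles. The column headings of the tables number the afatinib libraries differently, so that afatinib replicates 1, 2 and 3 here are the columns headed Afa-3, Afa-4 and Afa-5. Afatinib replicate 3 lay near the vehicle libraries over the whole transcriptome, with a score of -17.7 on the first principal component against 89.1 and 55.4 for afatinib replicates 1 and 2, so the differences are also given without it.

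The mammalian clock is a transcriptional loop that runs in most cells, skin cells included. CLOCK and BMAL1, the protein made from Arntl, bind as a pair to E-box sequences and switch on the Period genes, Dbp and the Rev-erb genes Nr1d1 and Nr1d2. The PERIOD proteins, together with the cryptochromes, then block CLOCK and BMAL1, while the REV-ERB proteins repress Arntl and Clock through ROR elements, so that Arntl transcripts run opposite to those of Dbp and Nr1d1 over the day. DBP acts through D-boxes, and Per1 and Per2 can also be induced from outside the loop, by cAMP signalling and by glucocorticoids.

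The RefSeq promoter table (build GRCr8) held all 8 genes, with a pair of start sites each for Nr1d1 and Clock. The build of the deposited counts is not given in the sources used here. Each window covered 250 bases before and 50 bases after the start, and was searched on both strands for the E-box CACGTG, the E'-box CACGTT, the core of the ROR element AGGTCA (ROR core), the D-box TTANGTAA and the core TGACG of the cAMP response element (CRE core). The last letters of an E-box can also begin a CRE core, but no matches overlapped in these windows. The 250 bases before the start are shown for 4 windows that differ in what they hold, with the matches in capitals. Per2 holds an E'-box and a D-box, the second Nr1d1 start holds the E-box, Arntl holds a ROR core, and Per1, the gene with the largest difference between treatments, holds none of the 5.
Per2 (chr9:99496994-99497243, minus strand): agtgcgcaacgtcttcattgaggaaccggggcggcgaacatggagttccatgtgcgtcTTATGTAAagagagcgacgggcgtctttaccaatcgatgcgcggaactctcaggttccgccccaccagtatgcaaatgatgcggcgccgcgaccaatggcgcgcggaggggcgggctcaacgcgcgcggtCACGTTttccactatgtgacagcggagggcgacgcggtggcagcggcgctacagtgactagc
Nr1d1, second start (chr10:84229455-84229704, minus strand): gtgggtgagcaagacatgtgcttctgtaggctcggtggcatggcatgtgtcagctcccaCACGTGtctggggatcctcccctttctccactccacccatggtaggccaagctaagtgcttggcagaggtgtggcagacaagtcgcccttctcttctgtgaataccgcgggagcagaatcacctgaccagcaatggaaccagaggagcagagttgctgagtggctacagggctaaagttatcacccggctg
Arntl (chr1:176766078-176766327, plus strand): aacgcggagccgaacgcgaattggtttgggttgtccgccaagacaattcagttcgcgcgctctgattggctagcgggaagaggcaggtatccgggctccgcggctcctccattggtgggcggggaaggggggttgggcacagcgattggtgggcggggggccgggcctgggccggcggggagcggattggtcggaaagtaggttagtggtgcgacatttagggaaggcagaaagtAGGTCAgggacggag
Per1 (chr10:54304126-54304375, plus strand): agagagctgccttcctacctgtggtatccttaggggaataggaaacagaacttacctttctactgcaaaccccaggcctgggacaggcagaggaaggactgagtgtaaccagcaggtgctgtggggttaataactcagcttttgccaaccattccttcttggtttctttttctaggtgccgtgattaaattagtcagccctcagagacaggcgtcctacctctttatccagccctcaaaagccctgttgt

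In Per2 the E'-box began 62 bases and the D-box 192 bases before the start, and a CRE core lay 38 bases after it. The E-box of the second Nr1d1 start began 191 bases before that start, and the first Nr1d1 start had an E'-box 174 bases before it. The ROR core of Arntl began 15 bases before the start, and that of Nr1d2 began 187 bases before. Nr1d2 also had a CRE core 38 bases after its start, and Per3 had one 164 bases before. No searched letters were found for Dbp or at either Clock start. Over all 33469 promoters of the table, 6.42% held the E-box, 4.83% the E'-box, 16.2% the ROR core, 2.24% the D-box and 21.2% the CRE core. The Per1 window lies inside the span of the gene in the same build, at the start that the table records, so other starts of Per1 were not searched. The second starts of Nr1d1, which holds the E-box, and of Clock likewise lie downstream of their first starts. A match is a description of these letters and not a binding site, and the absence of a match covers this window only.

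**Figure D1:**
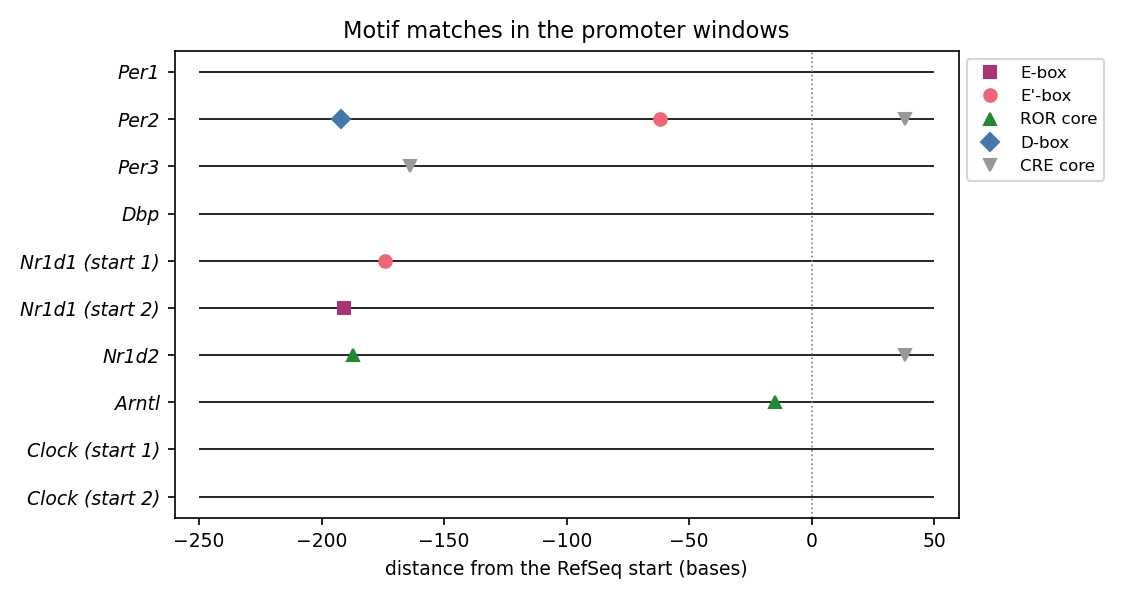
Positions of motif matches (symbols, first base) in the promoter windows of the 8 clock genes, from 250 bases before to 50 bases after the RefSeq start (x axis, bases), 1 line per start site. The lines of Per1, Dbp and Clock carry no match, and Per2 carries 3.

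Among the repressors of the loop, Per1 had the largest difference between treatments. Its level, as CPM (read counts divided by the TMM-scaled library size), was 23.6, 23.8 and 20.9 in vehicle replicates 1, 2 and 3. It was 64.7, 81.9 and 121.8 in afatinib replicates 1, 2 and 3. The groups did not overlap, the lowest afatinib library being 2.72 times the highest vehicle library. The vehicle libraries lay within 1.14-fold of each other, while the afatinib libraries spanned 1.88-fold. The means were 22.8 ± 1.63 CPM in vehicle and 89.5 ± 29.3 CPM in afatinib (SD, n = 3 each), a ratio of 3.93. The difference of mean log2 CPM was 1.92 ± 0.27 (SE), and 295 of the 15497 tested features (1.90%) had an edgeR log2 fold change as high as that of Per1 or higher. In bulk skin, a larger share of cells that express a gene and more transcript per cell cannot be told apart.

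Per2, the close relative of Per1 and likewise a repressor of CLOCK and BMAL1, did not separate the groups. Its level was 24.8, 36.4 and 28.1 CPM in vehicle replicates 1, 2 and 3, and 31.6, 32.5 and 53.4 CPM in afatinib replicates 1, 2 and 3. Afatinib replicate 3 was the highest of the 6, and the other afatinib libraries lay within the vehicle range. The difference of mean log2 CPM was 0.37 ± 0.29 (SE, n = 3 each), and 0.12 without afatinib replicate 3.

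Per3, the third Period gene, was 36.3, 67.7 and 39.7 CPM in vehicle replicates 1, 2 and 3. It was 21.5, 44.0 and 87.1 CPM in the afatinib libraries, which thus held both the lowest and the highest value of the 6. The difference of mean log2 CPM was -0.08 ± 0.64 (SE), far smaller than the spread between libraries. The ratio of Per1 to Per2 counts, which does not depend on how libraries are scaled, was 0.950, 0.652 and 0.743 in vehicle and 2.05, 2.52 and 2.28 in afatinib replicates 1, 2 and 3. The ratio of Per1 to Per3 counts was 0.651, 0.351 and 0.526 in vehicle and 3.003, 1.86 and 1.40 in afatinib. Neither ratio overlapped between the groups, and both contain Per1.

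**Figure D2:**
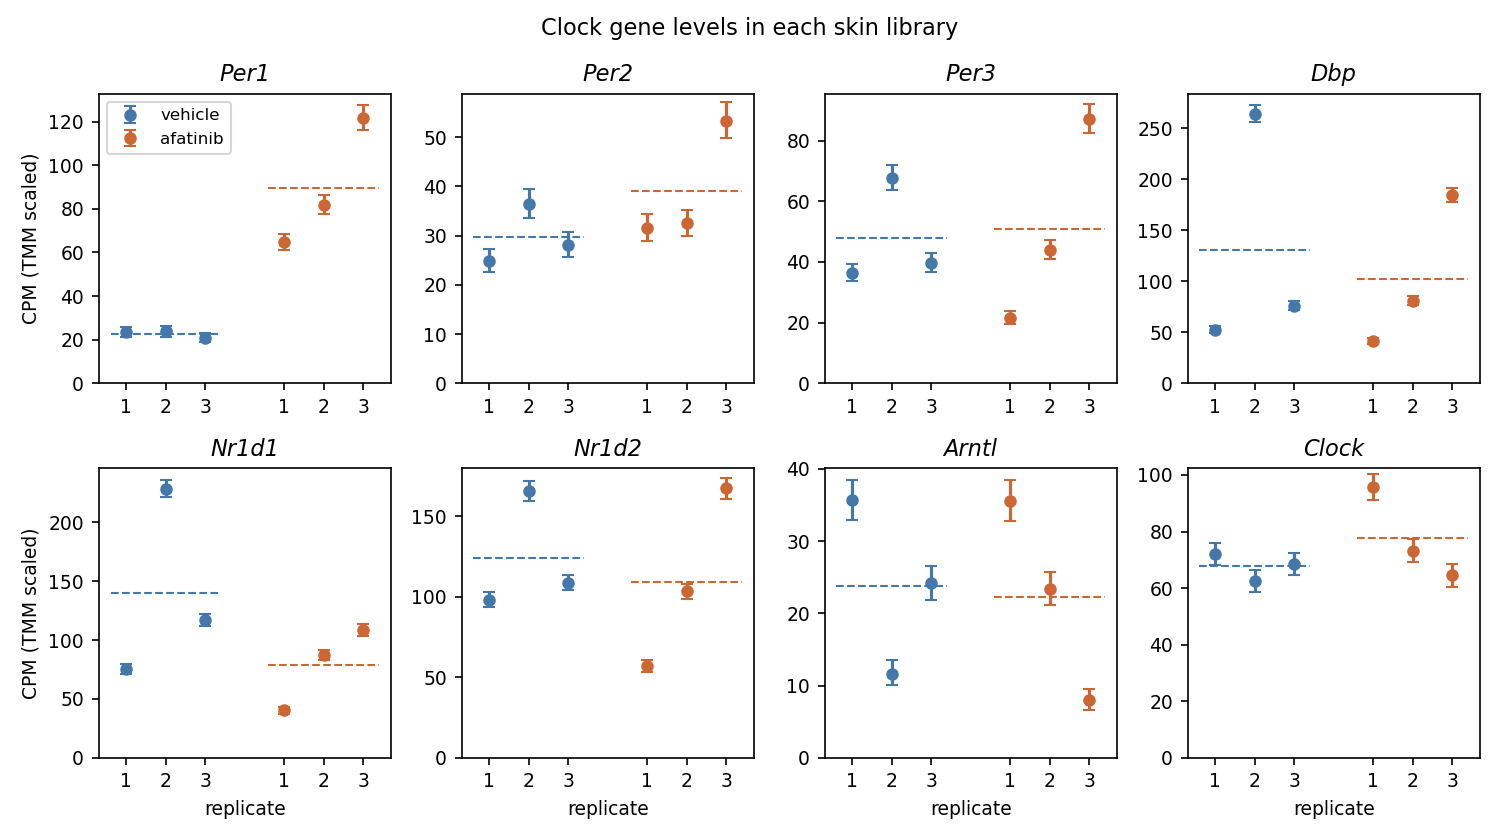
Level of each clock gene (y axis, CPM after TMM scaling, from 0) in each library (x axis, replicate number), vehicle in blue and afatinib in orange, with 95% Poisson intervals of the counts and dashed group means. Per1 is higher in all 3 afatinib libraries than in any vehicle library, whereas the other 7 genes overlap between groups.

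Dbp, an activator of D-box genes and a direct output of CLOCK and BMAL1, varied more between libraries of one group than between groups. Its level was 52.4, 264.1 and 76.1 CPM in vehicle replicates 1, 2 and 3, and 41.0, 80.8 and 184.6 CPM in afatinib replicates 1, 2 and 3. Vehicle replicate 2 and afatinib replicate 3 stood well above the other 4 libraries. The highest library was 5.04 times the lowest in vehicle and 4.50 times in afatinib, and the difference of mean log2 CPM between groups was -0.26 ± 0.94 (SE, n = 3 each).

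Nr1d1, which encodes the repressor REV-ERB alpha, was 75.3, 228.6 and 117.0 CPM in vehicle and 40.4, 87.3 and 108.4 CPM in afatinib replicates 1, 2 and 3. Vehicle replicate 2 was again the highest library, and the afatinib values reached into the vehicle range. The mean was 140.3 ± 79.3 CPM in vehicle and 78.7 ± 34.8 CPM in afatinib (SD, n = 3 each), a log2 difference of -0.80 ± 0.63 (SE).

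Nr1d2, which encodes REV-ERB beta, was 98.1, 165.7 and 108.9 CPM in vehicle and 57.1, 103.4 and 167.4 CPM in afatinib replicates 1, 2 and 3. Vehicle replicate 2 and afatinib replicate 3 had almost the same level. Its log2 difference was -0.28 ± 0.50 (SE). The ratio of Nr1d1 to Nr1d2 counts was 0.767, 1.38 and 1.07 in vehicle and 0.707, 0.845 and 0.648 in afatinib, with overlap.

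On the activator side, Arntl had the mirror image of the Dbp pattern. Its level was 35.6, 11.7 and 24.1 CPM in vehicle replicates 1, 2 and 3 and 35.5, 23.3 and 7.99 CPM in afatinib replicates 1, 2 and 3. The libraries with the most Dbp, vehicle replicate 2 and afatinib replicate 3, had the least Arntl. The smallest value rested on 123 counts, with a 95% Poisson interval from 6.64 to 9.53 CPM that covers counting error only, so counting error is small beside the 4.45-fold span of the afatinib libraries. The difference of means between groups was -0.20 ± 0.79 on the log2 scale (SE, n = 3 each).

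Clock, the partner of BMAL1, moved little. It was 72.0, 62.4 and 68.5 CPM in vehicle and 95.6, 73.2 and 64.5 CPM in afatinib replicates 1, 2 and 3, with a log2 difference of 0.18 ± 0.18 (SE). Vehicle replicate 2 and afatinib replicate 3 were the lowest of their groups, as for Arntl.

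**Figure D3:**
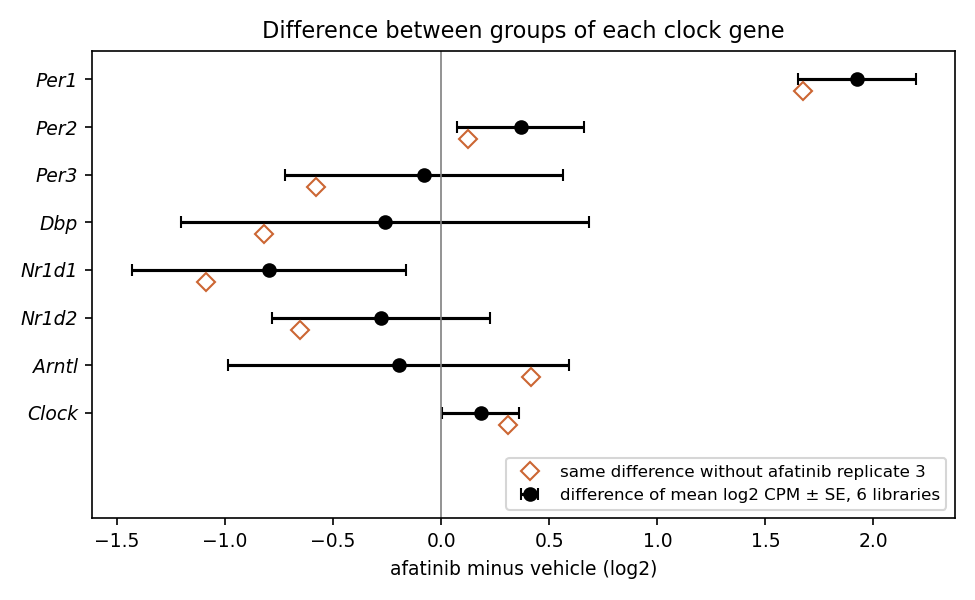
Difference of mean log2 CPM, afatinib minus vehicle (x axis), for each clock gene with its SE over 3 libraries per group (black), and the same difference without afatinib replicate 3 (open diamonds). Per1 lies at 1.92, and the other 7 genes lie between -0.80 and 0.37.

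Across the whole table, 0 of 15497 features (0%), and therefore 0 of the 8 clock genes, passed an adjusted p of 0.05 by the quasi-likelihood test of edgeR. At an unadjusted p under 0.05 edgeR placed 19.5% of the tested features and 1 of the 8 genes, Per1. DESeq2 called 6.38% of the features for which it gave an adjusted p, and limma voom 0%. Of the clock genes these called Per1 and none, respectively. The afatinib libraries all lay above the vehicle libraries in 12.9% of tested features and in 1 of the 8 clock genes, Per1. They all lay below in 13.2% of features and in 0 of the 8, so that the groups did not overlap in 26.2% of features and in 1 of the 8. Since Per1 was chosen on this contrast, nothing is read from these counts. The median edgeR log2 fold change was -0.0043 over the 8 genes and -0.0031 over all tested features. Per3 had opposite signs by edgeR (0.09) and by the difference of mean log2 CPM.

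Without afatinib replicate 3, edgeR called 10.2% of 16014 features, and 1 of the 8 clock genes, Per1, from which likewise nothing is read. The difference of mean log2 CPM of Per1 was then 1.67. It was -1.09 for Nr1d1, -0.82 for Dbp, -0.65 for Nr1d2 and -0.58 for Per3, while Arntl changed sign to 0.41 and Clock was at 0.31.

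The variation within each group was shared by the clock genes, and this does not rest on the contrast between treatments. In vehicle, Per2, Per3, Dbp, Nr1d1 and Nr1d2 were lowest in replicate 1, intermediate in replicate 3 and highest in replicate 2, and Arntl and Clock had the reverse order. In afatinib, the same 5 genes were lowest in replicate 1, intermediate in replicate 2 and highest in replicate 3, and Arntl and Clock were again reversed. Thus 7 of the 8 genes followed the order of Dbp, or its reverse, in both groups at once, Dbp itself included. Per1 followed it in afatinib but not in vehicle, where replicate 3 was lowest and all 3 values were close. In Per2, Per3 and Clock, some neighbouring steps of the order also lay within counting error. The 95% Poisson intervals of vehicle replicates 1 and 3 overlapped in each of these genes. So did those of afatinib replicates 1 and 2 in Per2 and of vehicle replicates 2 and 3 in Clock. Of 11666 features with a mean of at least 5 CPM, 12.1% had the order of Dbp or its reverse in both groups (5.92% and 6.21%). This order was picked after the values were seen, and the genes share the libraries they were read from, so the count is a description.

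The size of this variation differed among the members. The SD of log2 CPM within groups was 1.15 for Dbp, 0.97 for Arntl, 0.79 for Per3, 0.78 for Nr1d1 and 0.62 for Nr1d2. These were larger than the SD of 95.4%, 94.2%, 92.1%, 91.9% and 87.7% of the 11666 features, whose median SD was 0.24. Per2 (0.36) and Per1 (0.33) varied more than 71.5% and 68.2% of them, and Clock (0.22) lay just under the median.

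To place each library on a scale that its total count does not affect, an index was taken as the mean log2 CPM of Per1, Per2, Per3, Dbp, Nr1d1 and Nr1d2 minus that of Arntl and Clock, with the vehicle mean set to 0. It was -0.83, 1.10 and -0.27 in vehicle replicates 1, 2 and 3 and -1.19, 0.02 and 1.63 in afatinib replicates 1, 2 and 3. Both groups therefore spanned most of the scale, and the difference between their means, 0.15, was small beside SDs of 0.99 in vehicle and 1.41 in afatinib (n = 3 each). Its sign and size rested on single libraries, at -0.58 without afatinib replicate 3, 0.83 without afatinib replicate 1 and 0.22 without afatinib replicate 2. It was -0.26, 0.70 and 0.017 without vehicle replicates 1, 2 and 3. Without Per1 the difference over all libraries was -0.20. The scores on the first principal component of all tested features, in the same order, were -27.8, -86.6 and -12.5 in vehicle and 89.1, 55.4 and -17.7 in afatinib. Vehicle replicate 3 had both a higher index and a higher score than vehicle replicate 1. In each group, however, the library with the highest index had the lowest score. The part of other cell types, tissue composition or RNA quality in this was not tested, since no table used here pairs the identifiers with the symbols of marker genes, and the labelled tissue was not checked against its markers for the same reason.

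**Figure D4:**
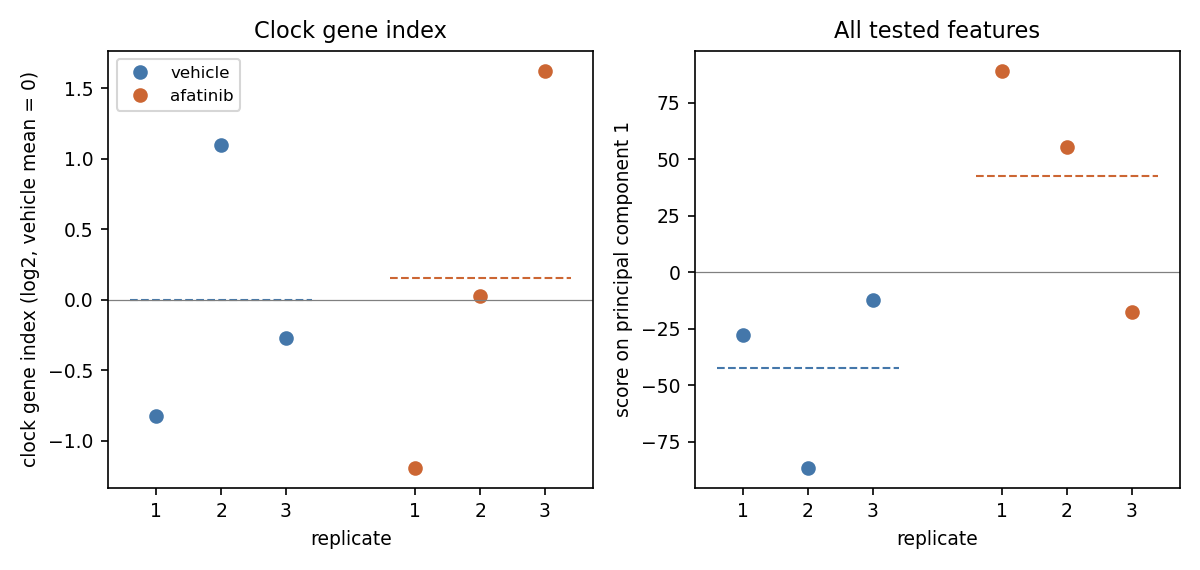
Clock gene index (left, log2, vehicle mean set to 0) and score on the first principal component of all tested features (right) in each library (x axis, replicate number), with dashed group means. Vehicle replicate 2 (1.10) and afatinib replicate 3 (1.63) have the highest index and the lowest score of their groups. Vehicle replicate 3 has both a higher index and a higher score than vehicle replicate 1.

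The ratio of Dbp to Arntl counts gave nearly the same 3 levels in both groups. It was 1.47, 22.6 and 3.15 in vehicle replicates 1, 2 and 3 and 1.15, 3.46 and 23.1 in afatinib replicates 1, 2 and 3. Set side by side in the order of this ratio, a comparison of single libraries chosen after their values were seen and given with no average and no test, Per1 was 23.6 against 64.7 CPM at the low end. It was 20.9 against 81.9 CPM in the middle and 23.8 against 121.8 CPM at the high end, the afatinib library being 2.74, 3.92 and 5.12 times the vehicle library. Since the Per1 values of the groups do not overlap, the afatinib library is the higher in any such pairing, and only the sizes of these ratios depend on the order.

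In the same order, Arntl itself was 0.998, 0.966 and 0.685 times the vehicle library, the lower value lying in the afatinib library each time. In the first 2 pairs the 95% Poisson intervals of Arntl overlapped, so counting error does not resolve a direction there. Arntl and Dbp also make up the ratio that set the order. Dbp was 0.783, 1.06 and 0.699 times. Per2 was 24.8 against 31.6 CPM, 28.1 against 32.5 CPM and 36.4 against 53.4 CPM, a smaller difference than that of Per1 and in the same direction. The intervals of Per2 overlapped in the middle pair. Nr1d1 was 0.536, 0.746 and 0.474 times the vehicle library, the lower value lying in the afatinib library each time. Clock was 1.33, 1.07 and 1.03 times the vehicle library, the higher value lying in the afatinib library each time. The intervals of Clock overlapped in the middle and last pairs. Per3 and Nr1d2 lay on both sides of 1. Per3 ran from 0.594 to 1.29 times, and Nr1d2 was 0.582 and 0.949 times in the first 2 pairs and 165.7 against 167.4 CPM in the last. The 26.2% of tested features whose groups did not overlap lie on one side in any such pairing. The share of all features on one side in this order was not taken, so nothing is read from the one-sided genes.

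**Figure D5:**
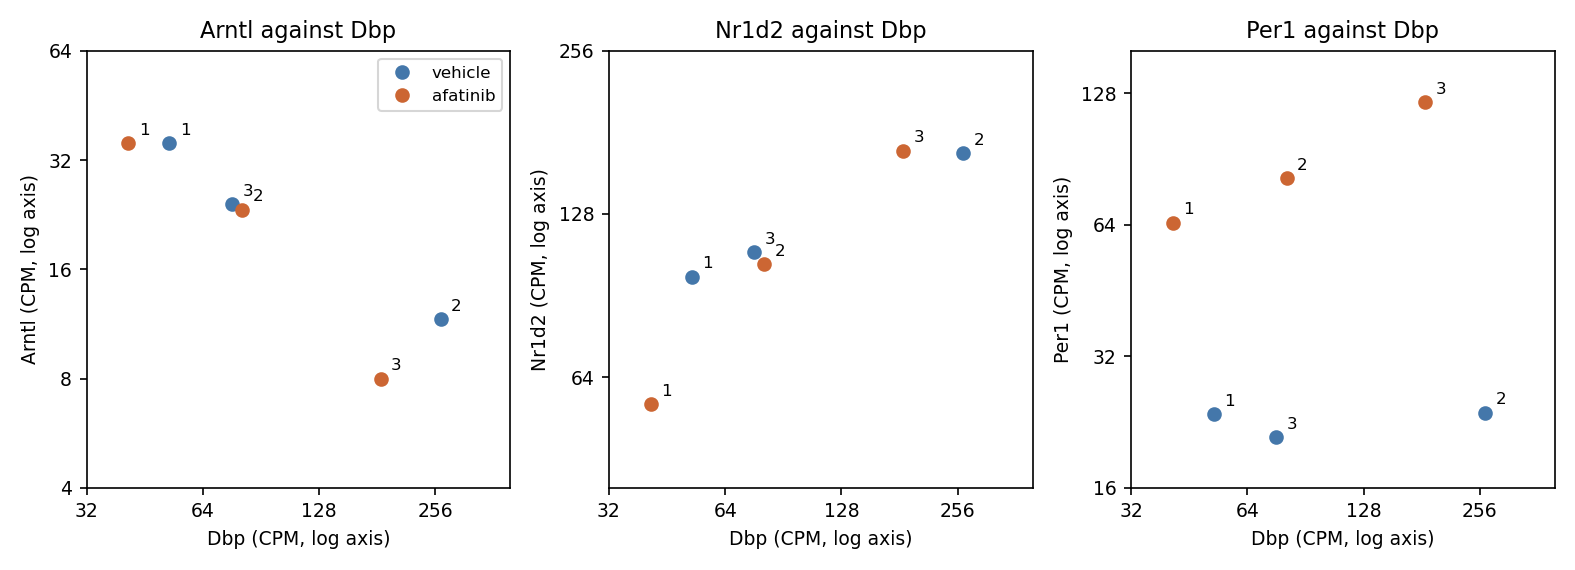
Arntl, Nr1d2 and Per1 (y axes, CPM, log axes) against Dbp (x axes, CPM, log axis) in each library, vehicle in blue and afatinib in orange, with the replicate number beside each point. Arntl is lower and Nr1d2 higher where Dbp is high in both groups. Per1 stays between 20.9 and 23.8 CPM in vehicle and rises with Dbp from 64.7 to 121.8 CPM in afatinib.

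Features whose pattern over the 6 libraries was most like that of Per1 were taken by the Pearson correlation of log2 CPM among 11665 others with a mean of at least 5 CPM, as a description that includes the difference between treatments. The closest was ENSRNOG00000016541 (r = 0.9945), at 55.5, 58.5 and 55.5 CPM in vehicle and 135.4, 139.2 and 219.6 CPM in afatinib replicates 1, 2 and 3. It separated the groups as Per1 did, with a narrow vehicle range and its highest value in afatinib replicate 3. The feature was picked for this likeness, and the groups did not overlap in 26.2% of tested features, so nothing is read from it. ENSRNOG00000005642 followed (r = 0.982) with a much smaller difference, from 37.3 to 39.6 CPM in vehicle and from 46.3 to 49.5 CPM in afatinib. The most opposite features were ENSRNOG00000018186 (r = -0.9954), at 38.8 to 39.1 CPM in vehicle and 26.6 to 30.9 CPM in afatinib, and ENSRNOG00000004813 (r = -0.9934), at 51.2 to 51.5 CPM and 42.1 to 44.8 CPM. The tables pair none of these with a symbol. For Arntl, the 2 most similar features had r of 0.987 and 0.983 and the 2 most opposite had r of -0.982 and -0.979, all outside the clock set.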

How the data were processed

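Back skin RNA was sequenced in 3 vehicle and 3 afatinib libraries. The values the authors deposited are raw read counts, 1 table per library, and HISAT2 2.0.5, featureCounts 1.5.0-p3 and DESeq2 1.16.1 are named in the submitters' processing notes. The sources used here name no build, annotation, strand setting or handling of shared reads, so reads of overlapping or antisense genes cannot be told apart. Totals ran from 15304166 to 18494281 counts, the 8 genes had 123 to 4188 counts per library, and a count of 3 corresponds to at most 0.196 CPM. Every pair of libraries differed beyond counting noise, with a chi-square per degree of freedom of 28.2 or more (features with at least 10 counts in the pair).

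Features were filtered with filterByExpr, scaled by TMM and tested by the robust quasi-likelihood test of edgeR 4.0.16 (R 4.3.3) with treatment as the single term and Benjamini-Hochberg adjustment over all 15497 features (threshold 0.05). Log2 CPM used a prior count of 2. Alternatives were RLE scaling, other filters, DESeq2 1.42.0, limma 3.58.1 voom, the replicate block and leaving out each library, and total count scaling and the index covariate were added after seeing the data. The procedure was also run on simulated data. Counts there were drawn independently for each feature, without the variation shared between features in these libraries, so the simulation does not cover that setting. The 8 genes and all lists were chosen with earlier results of these data known. Beside the members, the rule for named genes took the features most like and most opposite to Per1 and Arntl. Lists of other clock genes, glucocorticoid, cAMP and immediate early genes and cell type markers were set down by symbol and were not analysed here, because 0 of the 33692 features matched the RefSeq gene table (47357 genes) by any identifier.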

Additional observations from a re-analysis of the deposited data

How the results depend on the processing

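The count of features called depended on the test and on the libraries. With limma voom, RLE scaling, a stricter filter (5 CPM in 3 samples) or none, total count scaling or the replicate block, 0 features were called in either direction, with between 1982 (replicate block) and 3344 (no filter) at an unadjusted p under 0.05. DESeq2 called 581 higher and 432 lower. With the clock gene index (without Per1, so computed from the other 7 genes) as a covariate, added after seeing the data, edgeR called 369 higher and 274 lower, Per1 among the higher, which is no support for Per1, since it was chosen on this contrast. Leaving out 1 library moved the counts between 0 and 829 higher and between 0 and 798 lower, the upper ends without afatinib replicate 3. Leaving out vehicle replicate 2 gave 51 lower and vehicle replicate 1 gave 1 higher. The cause was not tested, and the fits without a library also have fewer samples.

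The log2 fold change of Per1 was positive under all 14 alternatives, from 1.68 without afatinib replicate 3 to 2.16 without afatinib replicate 1. For Per1 and the genes below it came from edgeR, except in the DESeq2 and limma voom alternatives. Per1 was chosen for groups that do not overlap, so its sign was bound to hold and is no support for it. Per2, Clock and Nr1d1 kept their sign in all 14, from 0.10 to 0.56, from 0.03 to 0.33 and from -1.14 to -0.29. The index covariate was computed from the clock genes other than Per1, so for those genes that alternative adjusts a gene partly for its own values. The sign was kept in 9 of 14 for Per3 (-0.55 to 0.45), 12 of 14 for Dbp (-1.11 to 0.67), 11 of 14 for Arntl (-0.60 to 0.31) and 12 of 14 for Nr1d2 (-0.64 to 0.13). The direction of these 4 genes therefore depends on single libraries or, for Per3 and Arntl, also on the test or scaling. The index of each library moved by less than its spread between libraries with a prior count of 0.5 or without Per1. The deviations of same-numbered libraries from the mean of each group correlated, across features, by 0.20 (number 1), -0.21 (number 2) and -0.39 (number 3). The numbers are those of the titles, while the column headings number the afatinib libraries differently. These values therefore cannot decide whether libraries were paired.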
